A study of Homo sapiens with 54 samples.

Results

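The Notch receptors NOTCH1, NOTCH2 and NOTCH3, the ligands DLL1, DLL3, JAG1 and JAG2, and the target genes HES1, HEY1 and HEY2 were followed across 27 cultures of human pluripotent stem cells. These 10 genes were chosen by name, with earlier results of these data known. They were matched through the RefSeq accession of their probes and are measured by 12 of 42405 probes. On this 1-colour Agilent array 19720 genes could be named. Each gene is described by its probe with the highest mean signal, and the other probes of NOTCH1 and NOTCH2 are given where they differ. Values are log2 signals relative to the 75th percentile of the same array, so that 0 is the level of the probe at that percentile, and they compare a gene between cultures, not one gene with another.

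Notch receptors are membrane proteins that are cut when a ligand on a neighbouring cell binds them, and the freed intracellular domain then acts in the nucleus with the DNA-binding protein RBPJ and a Mastermind-like (MAML) co-activator. The HES and HEY genes, which encode basic helix-loop-helix repressors of transcription, are its best known targets. DLL1, JAG1 and JAG2 activate receptors on neighbouring cells, whereas DLL3 is known mainly as an inhibitor within its own cell. In the embryo the pathway is known for its part in neural differentiation and in the segmentation of the body axis.

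H1 ESCs, an established human embryonic stem cell line, were grown without feeder cells in E8 Medium, a defined medium that contains TGF-beta. Each of 3 numbered experiments had a pre-culture with bFGF and 3 arms of 4 days, which received either bFGF or FGFC, a chimera of FGF1 and FGF2, at 100 ng/mL, or no FGF in the same basal medium. Long-term cultures with bFGF or FGFC, with 1 pre-culture, 1 bFGF and 1 FGFC culture in each system, were H1 in E8 Medium (30 days, 100 ng/mL) and in MEF-conditioned medium (41 days, 5 ng/mL), KhES-1 ESCs (30 days, 5 ng/mL) and 201B7 iPSCs (50 days, 10 ng/mL) on mouse embryonic fibroblast (MEF) feeder cells, and 253G1 iPSCs in E8 Medium (36 days, 100 ng/mL). For H1 in E8 Medium the pre-culture of experiment 1 of the 4-day series also served as the long-term pre-culture. The last sample was 1 culture of H1 ESCs differentiated through embryoid bodies without added FGF. Every culture was hybridised to 2 arrays, which were averaged and counted as 1 culture.

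POU5F1, a defining gene of pluripotent cells, was at 8.07 ± 0.19 (SD, n = 3 cultures) after 4 days with bFGF and at 6.996 ± 0.41 without FGF. Of the 7 pluripotency markers POU5F1 and NANOG passed lower without FGF against bFGF (NANOG -1.71 ± 0.25, limma adjusted p = 0.000957), SOX2, which neural progenitors also express, passed higher (1.32 ± 0.16, adjusted p = 0.000363), and 4 did not pass. All 7 pluripotency markers that could be matched were well above background on at least 1 array of every group, and their summed linear signal was 340 to 478.9 times the 75th percentile in the 6 cultures with bFGF or FGFC at 4 days, 267.9 to 373.1 without FGF and 31.02 in the differentiated culture. The share of probes well above background was 56.2% to 79.2% per array. In experiment 2 the labels give passage 59 for the 4-day cultures and passage 49 for the pre-culture, and the pre-cultures enter no test of the arms except through the shared estimate of the spread.

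The promoters of HES1 and HEY2 are shown because these targets moved in opposite directions without FGF. Both are the 250 bases before the annotated start, from RefSeq on GRCh38.p14, printed 5′ to 3′ on the strand of the gene. Capitals mark TGGGAA or its reverse complement TTCCCA, the core of the sequence that RBPJ is known to bind.
HES1, chr3:194135898-194136147, plus strand: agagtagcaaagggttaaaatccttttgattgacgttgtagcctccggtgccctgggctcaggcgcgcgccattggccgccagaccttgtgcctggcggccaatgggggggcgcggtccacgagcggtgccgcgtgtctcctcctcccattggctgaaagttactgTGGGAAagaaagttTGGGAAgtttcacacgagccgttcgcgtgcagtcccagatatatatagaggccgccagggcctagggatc
HEY2, chr6:125749382-125749631, plus strand: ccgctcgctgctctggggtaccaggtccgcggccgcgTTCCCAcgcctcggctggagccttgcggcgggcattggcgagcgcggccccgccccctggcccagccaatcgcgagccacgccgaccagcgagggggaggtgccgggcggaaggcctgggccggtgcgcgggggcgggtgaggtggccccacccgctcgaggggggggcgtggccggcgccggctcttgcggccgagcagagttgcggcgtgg
HES1 held the 6 letters at 2 places, 84 and 70 bases before the start, and HEY2 at 1 place, 213 bases before it on the other strand. Among 35116 promoter windows of this length 20.8% held the letters on either strand and 2.9% held them more than once. Promoter windows of NOTCH1, NOTCH2, NOTCH3, JAG1 and JAG2 were also searched and held no copy, which says only that these letters are not in those 250 bases. No window was at hand for DLL1, DLL3 and HEY1, which were not searched.

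Removal of FGF for 4 days addresses which genes depend on the growth factor. DLL1, HES1 and HEY1 rose without FGF, as did NOTCH2 and NOTCH3 by smaller steps, while HEY2, DLL3 and JAG1 fell against the cultures with bFGF. Thus 8 of the 10 genes passed the test, 5 higher and 3 lower, and NOTCH1 and JAG2 did not pass. Over all probes 12.7% passed in this comparison (limma, Benjamini-Hochberg adjusted p under 0.05), 5.54% higher and 7.19% lower. This share includes dim probes, whereas all 10 genes were well above background on every array of at least 1 arm. A fit of only such probes called 6479 of 27410, a larger share than 12.7%. The median log2 difference of the 10 genes was 0.16, against 0.01 over all probes. In these bulk samples fewer cells of a type and less RNA per cell cannot be told apart. The plot of the 4-day cultures shows each value.

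**Figure D1:**
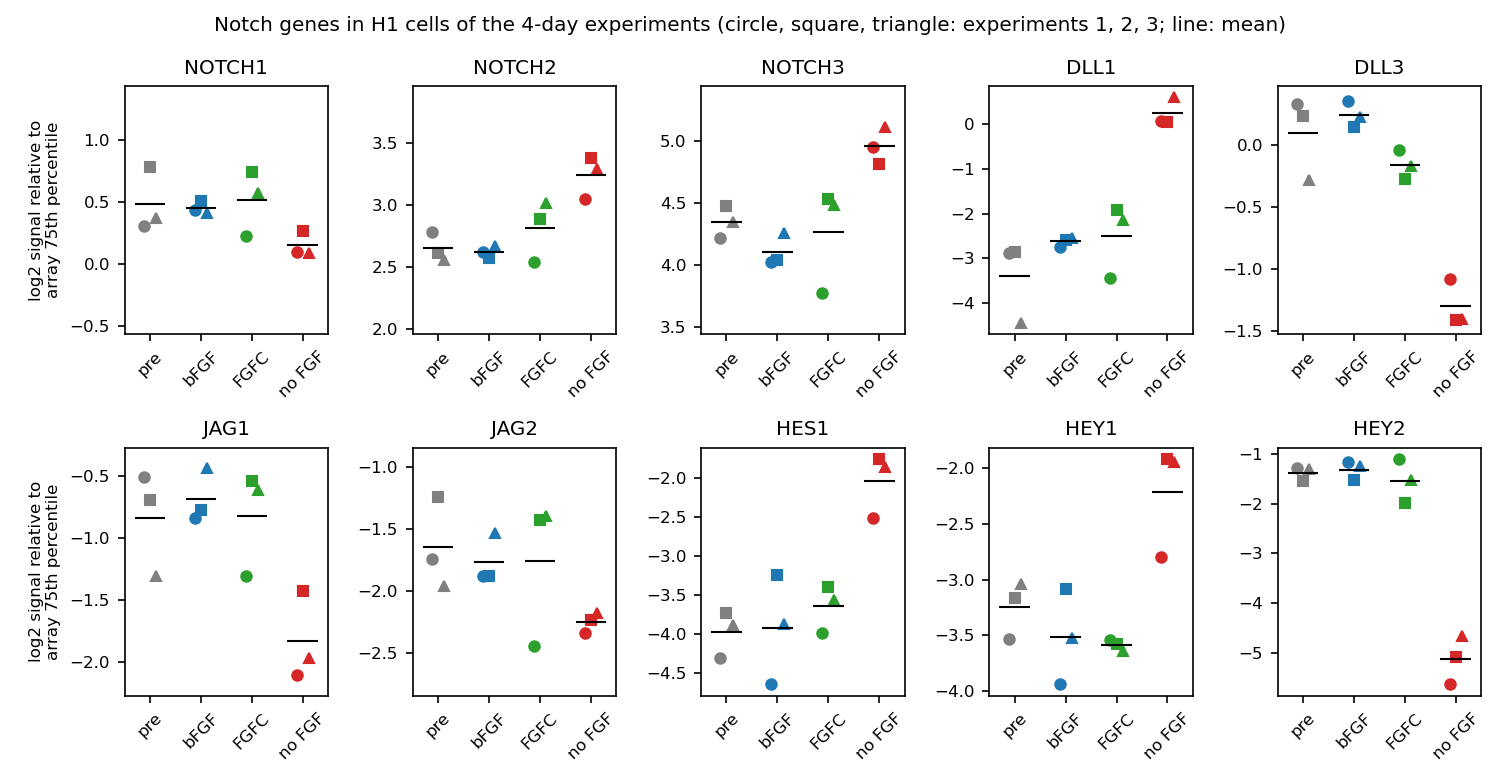
Level of each of the 10 genes (y axis, log2 signal relative to the array's 75th percentile, a separate scale for each gene) in the pre-culture and the 3 arms of the 4-day experiments (x axis), with 1 point per culture, a symbol for each experiment and a line at the mean of 3 cultures. The points without FGF lie above all other 4-day points for DLL1, HES1 and HEY1 and below them for HEY2 and DLL3.

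Among the receptors, NOTCH3 was at 4.03, 4.05 and 4.26 with bFGF and at 4.95, 4.82 and 5.11 without FGF in experiments 1, 2 and 3. The cultures without FGF were all above those with bFGF, by 0.85 ± 0.21 on the log2 scale (SE, adjusted p = 0.0219 in limma), a 1.8-fold difference. NOTCH2 was at 2.62, 2.57 and 2.67 with bFGF and at 3.04, 3.38 and 3.29 without FGF, a rise of 0.62 ± 0.17 (adjusted p = 0.0368). Again no values overlapped. A second NOTCH2 probe, which could also read the near-identical NOTCH2NL copies of the gene, gave -0.09 ± 0.19 (adjusted p = 0.809), so the rise of NOTCH2 rests on 1 of its 2 probes. NOTCH1 was at 0.44, 0.51 and 0.42 with bFGF and at 0.10, 0.27 and 0.09 without FGF. Its values without FGF were the lower ones, yet the difference of -0.30 ± 0.18 did not pass (adjusted p = 0.343), nor did that of its second probe (-0.53 ± 0.27, adjusted p = 0.245).

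The ligands moved in both directions. DLL1 was at -2.74, -2.59 and -2.54 with bFGF, at -3.45, -1.92 and -2.14 with FGFC, and at 0.07, 0.05 and 0.60 without FGF. Every culture without FGF was far above every culture with either factor, and the rise over bFGF was 7.27-fold, 2.86 ± 0.46 on the log2 scale (limma, adjusted p = 0.00188). DLL3 went the other way: it was at 0.36, 0.15 and 0.22 with bFGF, at -0.04, -0.28 and -0.17 with FGFC, and at -1.08, -1.41 and -1.40 without FGF. The 3 arms did not overlap, and the fall against bFGF was 2.91-fold (-1.54 ± 0.19, adjusted p = 0.000362). JAG1 was at -0.84, -0.77 and -0.44 with bFGF and at -2.10, -1.43 and -1.97 without FGF, a 2.22-fold fall (-1.15 ± 0.28, adjusted p = 0.0208). JAG2 was at -1.88, -1.88 and -1.54 with bFGF and at -2.34, -2.24 and -2.18 without FGF, which did not pass (-0.49 ± 0.28, adjusted p = 0.326).

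The 3 target genes split. HES1 was at -4.64, -3.24 and -3.87 with bFGF, at -3.98, -3.40 and -3.56 with FGFC, and at -2.52, -1.76 and -1.86 without FGF. All cultures without FGF were above all others, by 3.67-fold over bFGF (1.88 ± 0.34, limma adjusted p = 0.00421). HEY1 was at -3.94, -3.08 and -3.53 with bFGF, at -3.54, -3.57 and -3.64 with FGFC, and at -2.79, -1.92 and -1.94 without FGF, a 2.46-fold rise over bFGF (1.30 ± 0.28, adjusted p = 0.01). HEY2, by contrast, was at -1.17, -1.53 and -1.25 with bFGF and at -1.10, -1.997 and -1.53 with FGFC, but at -5.64, -5.09 and -4.67 without FGF, far below and without overlap. Its fall of 3.82 ± 0.28 on the log2 scale, 14.1-fold, had an adjusted p of 7.82e-06 in limma. HEY2 was well above background on 6 of 6 arrays with bFGF and on 1 of 6 without FGF, so the level it fell to is near the limit of the array. With normexp background correction, which adds an offset to low signals, the log2 difference was -1.78 for HEY2, 1.05 for HES1 and 0.87 for HEY1, all still past the test.

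Against FGFC in place of bFGF, 6 of the 10 genes passed, with DLL1, HES1 and HEY1 higher and DLL3, JAG1 and HEY2 lower without FGF, where 10.8% of all probes passed, 4.72% higher and 6.07% lower. DLL1 was 6.69-fold higher (2.74 ± 0.46, limma adjusted p = 0.00281), HES1 3.04-fold higher (1.60 ± 0.34, adjusted p = 0.0116) and HEY1 2.57-fold higher (1.36 ± 0.28, adjusted p = 0.00859). HEY2 was 12-fold lower (-3.59 ± 0.28, adjusted p = 1.42e-05), DLL3 2.2-fold lower and JAG1 2.02-fold lower. As HEY2 without FGF was well above background on 1 of 6 arrays, its difference rests on signals near background here too, and normexp background correction gave -1.64 for HEY2, 0.89 for HES1 and 0.83 for HEY1, all past the test. NOTCH3 (0.70 ± 0.21, adjusted p = 0.0599, and 0.046 with the experiment number as a block, where it passed) and NOTCH2 (0.42 ± 0.17, adjusted p = 0.16) did not pass without the block. Both comparisons share the 3 cultures without FGF and are not independent of each other. In the plot of differences their points lie side by side.

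**Figure D2:**
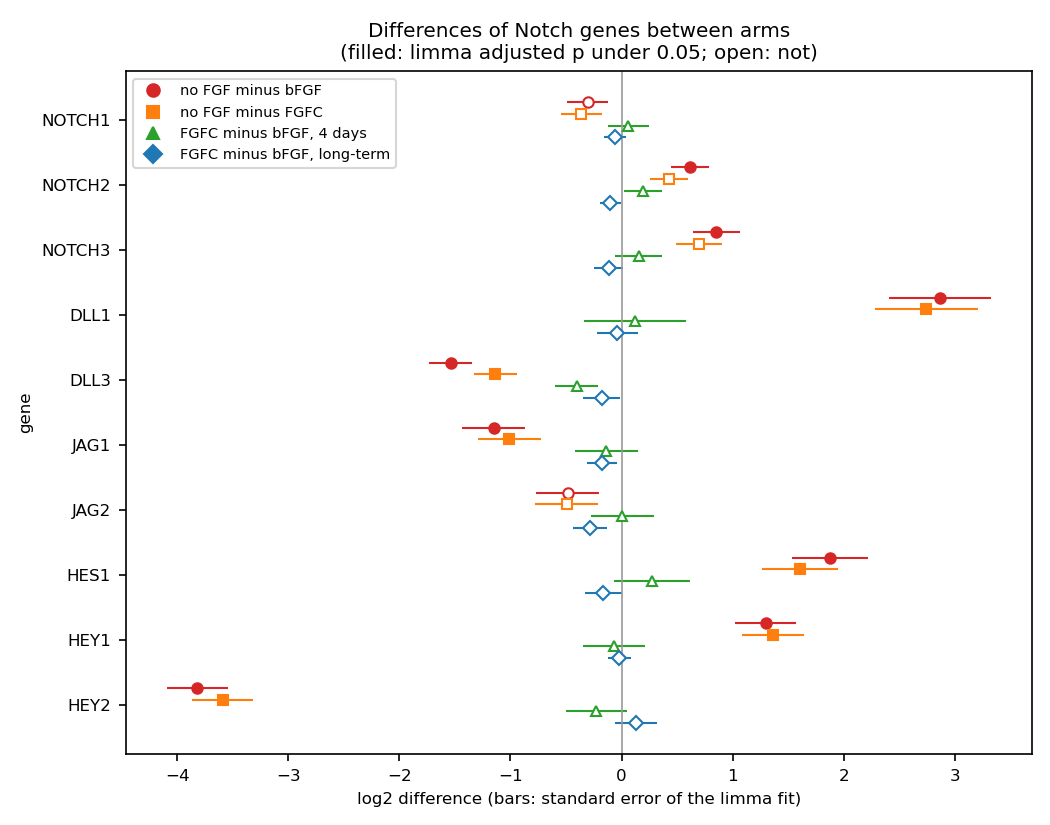
Log2 difference (x axis) of each of the 10 genes (y axis) between arms: no FGF minus bFGF and no FGF minus FGFC at 4 days, and FGFC minus bFGF at 4 days and in long-term culture, with bars for the standard error of the limma fit and filled points where the adjusted p is under 0.05. Filled points occur only for the 2 comparisons without FGF, and the points for FGFC minus bFGF lie between -0.40 and 0.27.

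Each of the genes that passed without FGF moved the same way in all 3 experiments. In experiments 1 and 3 the 3 arms shared an array slide, and within these slides no FGF minus bFGF was 2.81 and 3.13 for DLL1 and -1.44 and -1.63 for DLL3. With 3 cultures per arm the number that passed depended on every one of them: 5 genes passed against bFGF without experiment 1, 4 without experiment 2 and 3 without experiment 3. DLL1, DLL3 and HEY2 passed in each of these. Against FGFC 5 genes passed without experiment 1 and 2 without experiment 2 or without experiment 3, and DLL1 and HEY2 passed in each. NOTCH2 and NOTCH3 also missed the threshold against bFGF after quantile normalization or with the array slide as a block, with adjusted p-values of up to 0.33 and 0.253 over all alternatives.

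Other genes of the pathway were described from a list of 55, of which 54 were found on the array. Without FGF, 8 passed higher and 4 lower against bFGF, which is 22.2% beside 12.7% of all probes, and the median difference of the list was 0.05. Of the 54 genes 49 were well above background on every array of 1 arm. A fit of only such probes called 6479 of 27410, so the 22.2% cannot be read as an excess. Most genes of the signalling machinery did not pass, and neither did most of all probes. RBPJ, which did not pass, was at 3.84 ± 0.11 (SD, n = 3) without FGF and 4.01 ± 0.17 with bFGF. None of the 13 genes of ligand endocytosis and receptor turnover and none of the 4 corepressor genes passed. Beside the 12.7% of all probes, counts in so few genes do not set these classes apart. LFNG, a glycosyltransferase that modifies Notch receptors, rose 1.24 ± 0.27 (limma adjusted p = 0.0113), from 0.39 ± 0.44 to 1.64 ± 0.25. APH1B, which encodes a subunit of the gamma-secretase that cuts the receptors, fell by 1.37 (adjusted p = 0.00264). RBPJL, a relative of RBPJ, fell by 2.46 (adjusted p = 0.00122) to a level well above background on 2 of 6 arrays.

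The largest changes in this list were in DLK1, a ligand-like membrane protein, in BHLHE41, a basic helix-loop-helix repressor related to the HES and HEY proteins, and in KAT2B, a histone acetyltransferase. DLK1 was at -1.84, -2.20 and -1.91 with bFGF and at 2.24, 4.14 and 3.79 without FGF, a rise of 5.37 ± 0.38 (limma adjusted p = 7.45e-06), and the groups did not overlap. Its relative DLK2 rose by 1.53 (adjusted p = 0.000971) and DNER, another non-canonical ligand, fell by 1.15 (adjusted p = 0.00813). KAT2B was not well above background on any array with bFGF and rose to -2.79 ± 0.57 without FGF, at least 8.001-fold (adjusted p = 1.12e-05). BHLHE41 was at -2.63 ± 0.44 with bFGF and not well above background on any array without FGF, at least 7.152-fold lower (adjusted p = 2.09e-06). HES5, a target gene known from neural progenitors, was at -4.53, -4.73 and -4.82 with bFGF and at -3.72, -3.24 and -2.54 without FGF, a rise of 1.53 ± 0.28 (adjusted p = 0.00386). Among other targets HES4 differed by -0.34 ± 0.50, HES6 by -0.07 ± 0.15, HEYL by 0.00 ± 0.21 and NRARP by -0.10 ± 0.17, and none of these passed. Against FGFC 5 genes of the list passed higher and 4 lower, which is 16.7% beside 10.8% of all probes. With dim probes filtered out, the fit against FGFC called 5822 of 24465, so the 16.7% cannot be read as an excess. The list genes named by size against FGFC were DLK1 (5.48), KAT2B (3.20), HES5 (1.98), DLK2 (1.43) and NOTCH4 (0.63) as rises. The falls were in BHLHE41 (-3.25), RBPJL (-2.50), APH1B (-1.31) and DNER (-0.96).

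Markers of other cell types moved with the same arms. Of 57 markers, 10 passed higher and 7 lower without FGF against bFGF, which is 29.8% of them beside 12.7% of all probes. Only 28 of the 57 were well above background on every array of 1 arm. A fit of only such probes called 6479 of 27410, so the 29.8% cannot be read as an excess. PAX6, a neural and eye transcription factor, rose at least 37.72-fold, and GATA3 and TFAP2A, found in surface ectoderm and trophoblast, rose at least 20.09-fold and 9.422-fold, all from levels not well above background on any array with bFGF. The proneural genes NEUROG1, NEUROG2, NEUROD1, NEUROD4 and ATOH1, which are classical targets of HES repression, were not well above background on any array without FGF, nor was SOX1. The summed linear signal of the 10 neural markers was 9.754 to 10.89 with bFGF and 14.75 to 23.18 without FGF, but in cultures kept with bFGF or FGFC it reached 39.19 in MEF-conditioned medium and 27.58 in 253G1. Most of it came from NES, an intermediate filament gene that pluripotent cells express as well, at a mean of 3.28 with bFGF and 4.07 without FGF, and of the 10 neural markers PAX6 and NES passed. The summed signal of the 7 surface ectoderm, amnion and trophoblast markers, of which 3 passed higher, was 6.01 to 7.77 with bFGF and 6.297 to 9.006 without FGF. That of the 9 fibroblast markers was 47.01 to 54.59 and 18.5 to 25.07, carried by THY1, a surface protein that human pluripotent cells also express, which fell by 1.70 on the log2 scale. PRRX1 and FBN1 passed higher, the other 6 did not pass, and DCN and LUM were not well above background on any array of either arm. Among the 7 endothelial markers 2 passed lower and 5 did not pass, with a median log2 difference of -0.006 and a highest of 0.62. The largest fall was in KDR, an endothelial and early mesodermal receptor gene, by 4.17 on the log2 scale. Whether a change in the kinds of cells present had a part in the Notch gene values was not tested.

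Replacement of bFGF by FGFC asks whether the chimera can stand in for the natural factor. None of the 10 genes passed at 4 days, and 0% of all probes did (limma, with 1262 probes at an unadjusted p under 0.05). The largest difference was in DLL3, which was lower with FGFC in all 3 experiments, with log2 differences of -0.40, -0.42 and -0.39 and no overlap between the arms, but its adjusted p was 1. HES1 was 0.27 ± 0.34 higher, HEY2 -0.23 ± 0.28 and NOTCH2 0.19 ± 0.17, and the other differences lay between -0.14 and 0.15. DLL1 varied more with FGFC than with bFGF, from -3.45 in experiment 1 to -1.92 in experiment 2, where the bFGF cultures spanned -2.74 to -2.54.

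In long-term culture none of the 10 genes passed either, with the 5 systems as blocks, where again 0% of all probes passed (2537 at an unadjusted p under 0.05). The fitted differences ran from -0.29 ± 0.15 for JAG2 (adjusted p = 0.701) to 0.13 ± 0.19 for HEY2 (adjusted p = 0.829). No gene reached a 2-fold difference in any of the 5 systems, where 6.82% (H1, E8 Medium), 4.38% (H1, conditioned medium), 3.15% (KhES-1), 6.16% (201B7) and 6.98% (253G1) of all probes did. The widest single differences were in H1 in MEF-conditioned medium, where FGFC minus bFGF was -0.88 for JAG2, -0.78 for DLL1 and 0.75 for HEY2, each from 1 culture per arm. DLL3 was lower with FGFC in 4 systems, with -0.23 and -0.51 for H1 (E8 and conditioned medium), -0.43 for 253G1 and -0.24 for KhES-1, and higher in 201B7, with 0.52. Its pooled difference was -0.18 ± 0.16 (adjusted p = 0.737), or -0.35 without 201B7 (adjusted p = 0.577), and it did not differ between 4 days and long-term culture by more than its error (-0.22 ± 0.24, adjusted p = 0.942 in limma). The same test of the difference of effects passed for 0 of the 10 genes and for 0 of all 42405 probes, with 2308 at an unadjusted p under 0.05.

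**Figure D3:**
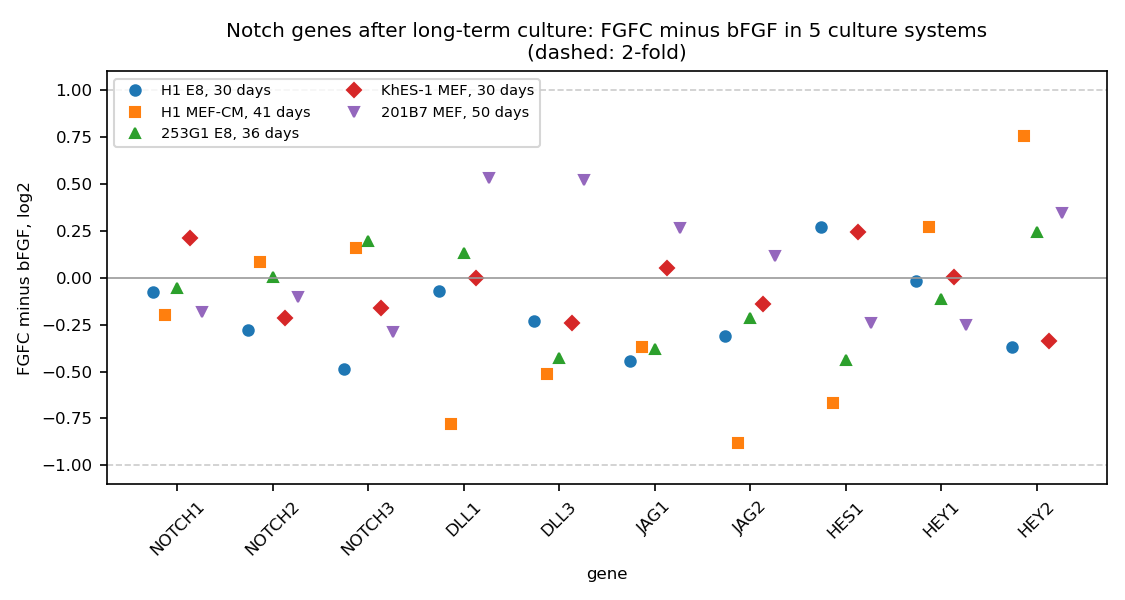
FGFC minus bFGF difference (y axis, log2) of each of the 10 genes (x axis) after long-term culture, with 1 point for each of 5 culture systems of 1 culture per arm. All points lie within the dashed lines at a 2-fold difference.

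Levels were also compared across media and lines, and the plot of all cultures draws 6 of the genes. H1 ESCs in MEF-conditioned medium with 5 ng/mL were compared with H1 in E8 Medium with 100 ng/mL, 3 cultures each. NOTCH3 was at 4.88, 4.73 and 4.89 in MEF-conditioned medium (pre-culture, bFGF, FGFC) and at 4.22, 4.37 and 3.88 in E8 Medium, without overlap, a difference of 0.68 ± 0.18 (limma adjusted p = 0.0148). HEY2 was at -1.83, -2.43 and -1.68 against -1.28, -1.002 and -1.37, a difference of -0.76 ± 0.25 (adjusted p = 0.039). These 2 genes of the 10 passed, where 29.2% of all probes did, 8.16% higher and 21% lower, with a median of all probes of -0.15, so the share of Notch genes was not above the background. JAG1 was 0.69 ± 0.27 higher in MEF-conditioned medium and DLL1 0.78 ± 0.46 higher, neither past the test.

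The probes of NOTCH1 and NOTCH2 disagreed in this comparison. The brighter NOTCH1 probe differed by 0.23 ± 0.18 (limma adjusted p = 0.364) and the other by -0.59 (adjusted p = 0.0458). The brighter NOTCH2 probe differed by 0.13 ± 0.18 and the other by 0.59 (adjusted p = 0.0222). Medium, FGF dose and array slide cannot be told apart here, and leaving out single cultures left 0 to 4 genes past the test. Without the E8 pre-culture DLL1, DLL3 and JAG1 passed as higher in MEF-conditioned medium and HEY2 no longer passed, without the MEF-conditioned culture with FGFC none passed, and without any 1 of the other 4 cultures 1 gene passed. Of the 57 markers 13 passed higher and 15 lower in MEF-conditioned medium, which is 49.1% of them beside 29.2% of all probes. Among the 6 muscle markers 3 passed higher and 3 did not pass, with differences from -0.98 to 6.16, the latter for ACTA2, a smooth muscle and stromal actin. Among the 5 endoderm markers 2 passed higher and 3 did not pass. These ran from -1.41 to 3.42, the latter for AFP, a yolk sac and liver protein, with a median of -0.098. Of the 9 fibroblast markers 3 passed higher (COL1A1 by 2.36, COL1A2 by 1.26 and FBN1 by 0.97) and 3 lower (COL3A1, LUM and PRRX1), the latter not well above background on any array of either medium, as was DCN. Of the 10 neural markers NES passed higher by 1.57 and 7 passed lower, 5 of which were not well above background on any array of either medium.

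Of the wider pathway list, 10 genes passed higher and 11 lower in MEF-conditioned medium, 38.9% beside 29.2% of all probes, with a median of -0.04. RBPJ itself was 0.83 ± 0.14 higher (limma adjusted p = 0.00155), at 4.77 ± 0.10 against 3.94 ± 0.06. KAT2B was at least 3.658-fold higher, HES2 2.32 higher, HES4 2.28 higher, MAML2 2.08 higher and DNER 1.77 higher, and HES2 and MAML2 were well above background on only 1 of 6 arrays in E8 Medium. MFNG, a glycosyltransferase like LFNG, differed by -2.35, RBPJL by -1.74, BHLHE41 by -1.68, DTX1 by -1.53 and HES6 by -1.17, all past the test. HES4 was uneven in E8 Medium, at 0.73 in the pre-culture and at -1.02 and -2.89 after 30 days.

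**Figure D4:**
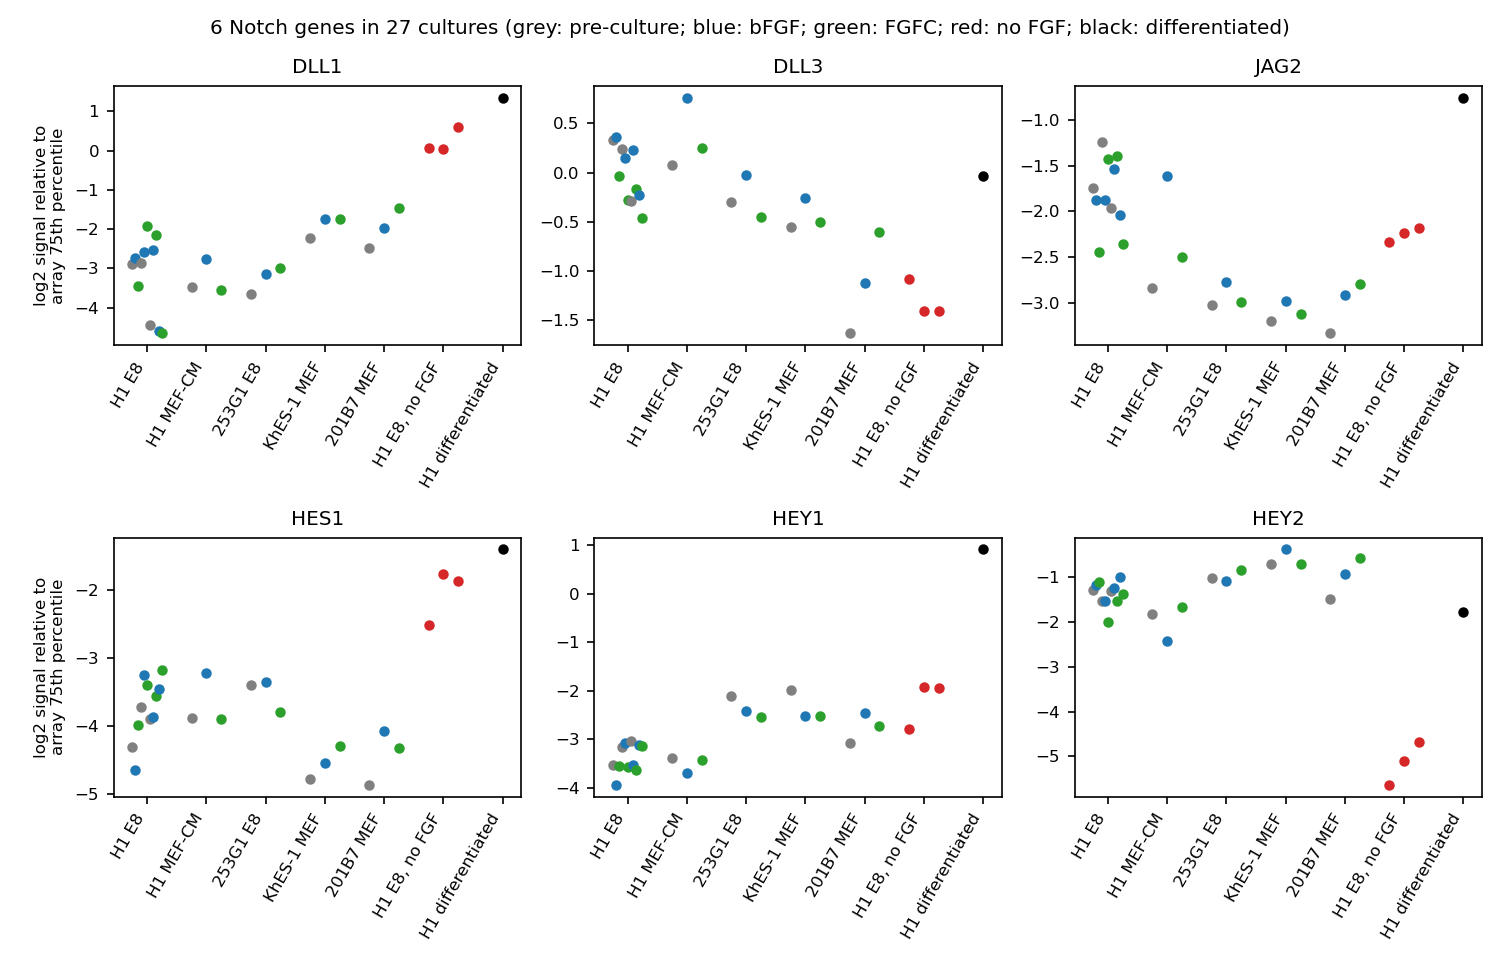
Levels of DLL1, DLL3, JAG2, HES1, HEY1 and HEY2 (y axis, log2 signal relative to the array's 75th percentile, a separate scale for each gene) in all 27 cultures, 1 point each, by line and medium (x axis) and coloured by arm. DLL1, HES1 and HEY1 are highest in the differentiated culture, and HEY2 is lowest in the 3 cultures without FGF.

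Among the 23 cultures kept with bFGF or FGFC, the receptors varied least: NOTCH1 spanned -0.10 to 0.79, NOTCH2 2.35 to 3.53 and NOTCH3 3.77 to 4.89. DLL1 spanned -4.65 to -1.45 in the same cultures. It was at -1.91 ± 0.28 in KhES-1 and -1.97 ± 0.52 in 201B7, both on feeder cells, at -3.26 ± 0.43 in H1 in MEF-conditioned medium and -3.26 ± 0.35 in 253G1 (SD over 3 cultures of a system). KhES-1 and 201B7 overlapped each other, and neither overlapped with H1 in MEF-conditioned medium or with 253G1. In H1 in E8 Medium DLL1 ranged from -4.65 and -4.58 after 30 days and -4.44 in 1 pre-culture to -1.92 after 4 days with FGFC, and it was well above background on 19 of 22 arrays.

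JAG2 was lower outside H1: it was at -2.93 ± 0.13 in 253G1, -3.02 ± 0.28 in 201B7 and -3.10 ± 0.11 in KhES-1, which overlapped each other, and between -2.45 and -1.24 in the 11 H1 cultures in E8 Medium with bFGF or FGFC, which did not overlap with them. H1 in MEF-conditioned medium spanned -2.84 to -1.62 and overlapped both. HEY1 was higher outside H1, at -2.35 ± 0.31 in KhES-1, -2.35 ± 0.22 in 253G1 and -2.75 ± 0.31 in 201B7, against -3.94 to -3.04 in H1 in E8 Medium and -3.51 ± 0.17 in MEF-conditioned medium, with only the 201B7 pre-culture at -3.08 inside the H1 range. HES1 had its lowest means on feeder cells, at -4.54 ± 0.24 in KhES-1 and -4.42 ± 0.40 in 201B7, which overlapped with the lowest H1 cultures in E8 Medium (-4.64 and -4.31), and in 201B7 it was well above background on 4 of 6 arrays. HEY2 had its highest mean in KhES-1, at -0.60 ± 0.19, and the 201B7 values (-0.998 ± 0.47) overlapped with those of KhES-1 and of 253G1 (-0.99 ± 0.13). DLL3 had its lowest mean among the 5 systems in 201B7, at -1.12 ± 0.51, with -1.63 in the pre-culture, -1.13 with bFGF and -0.61 with FGFC. The 2 arrays of the 201B7 pre-culture were dim, with 75th percentile signals of 182 and 234, where all other arrays had 504 to 913. This culture had the lowest DLL3, HES1 and JAG2 and the highest NOTCH2 of all 27 cultures, and the part of the dim signal was not tested. The levels by system are descriptions of 3 cultures each, with no test between lines, since line, medium and dose change together.

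All 3 cultures of 201B7 also stood apart in the summed linear signal of the 9 fibroblast markers, which was 254.9 in the pre-culture, 142.1 with bFGF and 74.9 with FGFC, where the other 4 long-term systems spanned 38.91 to 67.68. DCN, a matrix proteoglycan gene, was at 4.85 to 7.08 in 201B7 and at -2.09 or lower in the other 4 systems, and THY1 was at 4.70 to 6.23 beside 4.72 to 5.59. COL3A1, LUM, PRRX1 and FBN1 were not well above background on any array of 201B7. The part of these markers in the 201B7 values of the Notch genes was not tested.

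The differentiated H1 culture was set beside the 3 H1 pre-cultures in E8 Medium as a description, with 1 culture and no test. DLL1 was at 1.34 in it and between -4.44 and -2.85 in the pre-cultures, a 26.6-fold difference from their mean. HEY1 was at 0.91 against -3.53 to -3.04, 17.8-fold, and HES1 was at -1.40 against -4.31 to -3.72, 5.96-fold. JAG1 was at 0.51 against -1.31 to -0.51, 2.55-fold. These 4 of 10 genes were at least 2-fold higher and none was as much lower, where 29.7% of all probes differed that much, 14.3% higher and 15.4% lower.

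Set beside the cultures without FGF, the differentiated culture had HEY2 at -1.77, close to the pre-cultures (-1.54 to -1.28) and far above the -5.64 to -4.67 without FGF. DLL3 (-0.03) and JAG1 (0.51) were likewise above the cultures without FGF, which lay at -1.41 to -1.08 and -2.10 to -1.43. DLL1, HES1, HEY1, NOTCH2 and NOTCH3 were above all 3 pre-cultures in both kinds of culture, whereas HEY2, DLL3 and JAG1 were below the pre-cultures without FGF and not 2-fold below them after differentiation. NOTCH2 was at 3.504 and NOTCH3 at 4.78, above all 3 pre-cultures by less than 2-fold of their mean.

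HES5 was at 5.27 in the differentiated culture and between -5.05 and -4.66 in the pre-cultures, where it was well above background on 3 of 6 arrays, and HES4 was at 6.36 against -1.03 to 0.86. Of the 54 other pathway genes 12 were at least 2-fold higher and 4 lower, where 14.3% of all probes were higher and 15.4% lower by this measure, with a median of 0.25 beside -0.12 over all probes. DLK1 was at 3.08, within its range without FGF (2.24 to 4.14). RBPJL was at -6.79 and not well above background on either array, against -1.96 to -1.70 in the pre-cultures. Of the neural markers only ATOH1 was not well above background in the differentiated culture, and the fibroblast markers summed to 212.5.

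The probes that followed the target genes most closely over the 27 cultures were searched among 19471 probes well above background on at least 27 of the 54 arrays. This is a description, and the cultures share lines, media and array slides. A coefficient can also rest on few cultures. HEY1 was at 0.91 in the differentiated culture and at -1.92 or lower in all others, and HES5 at 5.27 and at -2.54 or lower. HEY2 was at -5.64 to -4.67 in the 3 cultures without FGF and at -2.43 or higher in all others. Correlations without these cultures were not computed. For HES1 they were ATAT1 (Pearson's r = 0.921), PPP1R16A (0.912), TRO (0.908), TGFBR3 (0.898) and the forebrain transcription factor LHX2 (0.891). For HEY1 they were ALG9 (0.918), CYB561D1 (0.906), MINDY1 (0.906), DNAJB2 (0.903) and HES5 (0.902), which belongs to the pathway. For HEY2 they were the tetraspanin CD9 (0.935), BRINP1 (0.917), CNOT6L (0.902), SYPL2 (0.900) and BFSP1 (0.889).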

How the data were processed

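Per the file headers, the authors deposited the output of Agilent Feature Extraction 10.7.3.1 for 54 1-colour arrays: the processed signal intensity of each spot (background-subtracted, linear, not scaled between arrays), the median intensities of spot and background, and yes or no marks for outlier, saturated and well above background spots. Of 62976 spots per array, 4259 are controls, which were dropped along with outlier spots. Values under 1 became 1 before log2 transformation, and probes were averaged over their spots and reduced by the array's 75th percentile, as in the authors' methods. A probe was well above background where at least 0.5 of its spots were marked. Duplicate arrays were averaged. The number of cultures, not that of arrays, limits the precision.

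Arms were compared with limma 3.58.1 in R 4.3.3 (lmFit, eBayes) over all 42405 probes, with Benjamini-Hochberg adjustment and a threshold of 0.05. The 4-day fit held the pre-cultures and 3 arms, the long-term fit the 5 systems as blocks, and the medium fit system and arm of 15 cultures. Beyond experiment numbers the labels say nothing of independence. The paper describes the 4-day arrays as coming from 3 independent experiments and each long-term culture as a single experiment. The p-values measure the spread between these cultures. Where 1 group was above background on no array, the fold is a lower bound against the lowest signal well above background. The 10 genes and the gene lists were chosen with earlier results of these data known. Pathway genes are named as up to 5 largest rises and falls per comparison among those past the test, the same way in every pair and well above background in the higher group. Single markers of other cell types and pluripotency markers, and the pathway genes in groups that did not pass, are named after their values were seen. CIR1, TDGF1 and TWIST2 were not matched. The experiment numbers in the labels were taken to pair cultures without FGF with those with bFGF or FGFC, since deviations from the group means correlated over 0.1 in all 6 pairs (0.191 to 0.321), and a fit with this number as a block was run beside the one above. The fits were tested on simulated data.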

Additional observations from a re-analysis of the deposited data

Results flagged for a closer look

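DLL3 in long-term culture differed between FGFC and bFGF by 0.52 on the log2 scale in 201B7 iPSCs, far from the other 4 systems, which lay at -0.23, -0.51, -0.24 and -0.43. Chance alone flags a few percent of such groups, each system had 1 culture per arm, and the cause was not tested.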

How the results depend on the processing

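Counts of the 10 genes past the test (limma) moved by over 1.5 times only in these cases. Without 1 experiment the 8 genes against bFGF became 3 to 5, and the 6 against FGFC became 2 to 5. In MEF-conditioned against E8 Medium the 2 genes became 1 after quantile normalization and 1 with the first array of each culture, where HEY2 was lost, and 0 to 4 when single cultures were left out. Other settings gave 6 to 8 genes against bFGF and 5 to 7 against FGFC, and none passed for FGFC against bFGF in any setting.

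With the experiment number as a replicate block, 8 of the 10 genes passed against bFGF and 7 against FGFC (NOTCH3 in addition), and no other call among the 10 genes changed. Over all probes 5750 passed against bFGF and 4928 against FGFC with the block. Between bFGF and FGFC 1 of 3 same-numbered pairs correlated under 0.1 (0.0769), and none of the 10 genes passed with the block.

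Signs turned only for differences that did not pass, apart from the other probe of NOTCH2 without FGF against bFGF (-0.088). For FGFC against bFGF at 4 days, leaving out single experiments gave -0.026 to 0.19 for NOTCH1, -0.013 to 0.36 for NOTCH3, -0.16 (-0.019 without experiment 3) to 0.53 for DLL1, -0.32 to 0.027 for JAG1, -0.21 (-0.059 without experiment 3) to 0.29 for JAG2 and -0.30 to 0.14 for HEY1. The slide as a block gave -0.14 for JAG2 and 0.071 for HEY1, normexp 0.034 for HEY1, and the other NOTCH2 probe -0.10. In long-term culture quantile normalization gave 0.041 for DLL1 and 0.063 for HEY1, and the second arrays 0.035 for DLL1 and 0.025 for HES1. Leaving out single systems gave -0.18 to 0.15 for DLL1, -0.094 to 0.036 for HEY1 and -0.028 to 0.25 for HEY2. For MEF-conditioned against E8 Medium, HES1 was 0.026 after quantile normalization, 0.026 with first arrays and 0.084 against all 11 E8 cultures, where DLL1 was -0.093, and the other NOTCH1 probe gave -0.59. Leaving out single cultures gave -0.58 to 0.0093 for JAG2 and -0.26 to 0.23 for HES1. The cause of these turns was not tested.

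Over all probes, 5400 passed without FGF against bFGF, 9750 when only those arms were fitted, and 3557, 1942 and 1272 without experiments 1, 2 and 3. Against FGFC 4575 passed, 2553 with only those arms, and 1480 and 974 without experiments 2 and 3. For the media 12373 passed (3461 higher, 8912 lower), 4469 with normexp (1846 and 2623), 6716 after quantile normalization (3456 and 3260), 6256 with the filter on dim probes (3230 and 3026) and 7914 without the MEF-conditioned culture with FGFC. The split against bFGF was 3237 higher and 2821 lower with normexp, and 5552 and 4198 with only those arms. In the differentiated culture normexp lowered the differences to 3.78 for DLL1, 1.43 for HES1 and 3.30 for HEY1, and quantile normalization raised NOTCH2 to 1.03, past 2-fold, and NOTCH3 to 0.72. Signals near background limit HEY2 without FGF and HES1.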
